A study of Mus musculus with 61 samples.

Results

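Adipose tissue of 129 mice was set against adipose tissue of AJ mice. The comparison took the 7 libraries labelled 129 and the 7 labelled AJ, out of 61 libraries of 8 inbred strains in all. Both strains are founders of the Diversity Outbred mouse population, and all animals had been kept on a high-fat, high-sugar diet labelled 45 percent fat, so the diet is shared by the groups and is not itself compared. The labels used here give neither the substrain, the fat depot, the sex nor the age, and no untreated animal entered the comparison. Nothing in the labels says in words that each library is 1 animal, so the p-values measure the spread between libraries as labelled. Total counts per library were between 34681111 and 43511883 in 129 and between 36208008 and 44339202 in AJ. After a filter on low counts 18603 of 21169 genes were tested. Levels are CPM, counts scaled to a common library total with TMM factors and not divided by gene length, so they compare libraries for 1 gene and not genes with each other. Log2 fold changes are 129 over AJ with their standard errors (SE).

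Adipose tissue holds lipid-storing adipocytes together with progenitors, vessels, macrophages, mast cells, dendritic cells and lymphocytes. Inbred strains are each fixed for 1 allele at nearly every locus, so a strain pair can differ in single genes with damaged or duplicated alleles and in whole clusters that vary in gene content. The major histocompatibility complex (MHC), the immunity-related GTPases and the lectin-like receptors of natural killer (NK) cells are such clusters, and reads from an allele far from the reference genome can be assigned to a neighbouring copy.

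Several of the 14 libraries carried transcripts of other tissues. The summed level of 31 skeletal muscle markers was between 53.4 and 316 CPM in 129, whereas AJ replicates 3 and 4 had 2520 and 4870 CPM and the other AJ libraries between 87.8 and 126 CPM. Genital duct markers, of which 6 were in the table, summed to 949, 321 and 1050 CPM in 129 replicates 6, 7 and 9 and to at most 14.3 CPM in the other 11 libraries. Liver markers summed to 1690 CPM in AJ replicate 8, against 5.69 to 278 CPM in the other AJ libraries and 29.5 to 112 CPM in 129. These 6 libraries (129 replicates 6, 7 and 9, AJ replicates 3, 4 and 8) are called rich in other tissues below. The transcript Xist was between 418 and 581 CPM in 129 replicates 1, 2, 3 and 4 and at most 4.45 CPM in 129 replicates 6, 7 and 9. In AJ it was between 487 and 630 CPM in replicates 2, 3 and 4 and at most 6.38 CPM in replicates 1, 5, 6 and 8. Adipocyte genes were abundant in all 14 libraries: Adipoq, which encodes adiponectin, was between 1315 and 2921 CPM in 129 and between 1347 and 2262 CPM in AJ, and the summed adipocyte markers were between 40000 and 51900 CPM in 129 and between 33000 and 49600 CPM in AJ.

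Of the 18603 genes tested, 1823 (9.8%) were called at an adjusted p under 0.05 in edgeR's quasi-likelihood test. They comprised 889 genes higher in 129 (4.78%) and 934 lower in 129 (5.02%). The median absolute log2 fold change of the called genes was 1.01, and 298 of them differed by at least 3 on the log2 scale. The median log2 fold change of all genes tested was -0.009. The 7 libraries of 129 did not overlap with the 7 of AJ in 963 of the called genes, and in 1140 (6.13%) of all genes tested. Without AJ replicates 3 and 4 the test called 1525 genes (8.05%), 804 higher (4.24%) and 721 lower (3.8%), among them 666 of the 889 and 664 of the 934. Without all 6 libraries rich in other tissues, 4 against 4 libraries remained and 865 genes (4.52%) were called, 409 higher (2.14%) and 456 lower (2.38%), with 361 and 404 shared with the calls on all libraries. The 129 libraries left (replicates 1, 2, 3 and 4) all had high Xist. Of the AJ libraries left (replicates 1, 2, 5 and 6), only replicate 2 had high Xist. Strain and Xist are thus partly confounded in this setting, here and wherever it is used below, and their parts were not tested.

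Among called genes that averaged at least 5 CPM and did not overlap between the strains, the greatest fold higher in 129 was that of Mndal, a member of the Ifi200 cluster of interferon-inducible nuclear proteins. Lack of overlap was a condition for picking the 15 leading genes in each direction, so for them it is not a separate result. Mndal (chr1:173857220-173942491, GRCm38) had 15.4 to 23.6 CPM in 129 (median 19.4), against 0.0281 to 0.632 CPM in AJ (median 0.111). All 129 libraries lay far above all AJ libraries, with a log2 fold change of 6.34 (SE 0.48, adjusted p = 7.12e-16). Most of its values were not whole counts, so its reads are partly shared with other genes, which the files do not name. Mndal was 1 of 7 members of the Ifi200 cluster tested and the 1 that was called. Gdpd3, a phospholipase D that acts on lysophospholipids, had 52.4 to 85.4 CPM in 129 (median 66.1), against 1.2 to 1.8 CPM in AJ (median 1.34). It did not overlap either (log2 fold change 5.63, SE 0.22, adjusted p = 6.43e-29), and the highest mean among the other 6 strains was 2.12 CPM, in NZO, so 129 stood alone at this level. Gdpd3 also belongs to the genes that share reads.

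Dysf encodes dysferlin, which reseals torn cell membranes, and AJ mice are known to carry a damaging insertion in this gene. It was between 82.7 and 93.7 CPM in 129 (median 87.7), against 6.49 to 9.06 CPM in AJ (median 7.71). The groups were tight and far apart (log2 fold change 3.52, SE 0.14, adjusted p = 1.47e-28). Strain means of Dysf in the other 6 strains were between 63.3 CPM in B6 and 119 CPM in NZO, all above AJ.

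Col4a6, a chain of the collagen IV of basement membranes, was between 10.1 and 43.3 CPM in 129 (median 14.4), against 0.222 to 0.984 CPM in AJ (median 0.551). It was called with a log2 fold change of 5.43 (SE 0.51, adjusted p = 1.85e-12), and AJ lay below the means of all other strains, the lowest of which was 5.8 CPM in NZO. Its 3 highest values, 43.3, 29.0 and 40.6 CPM, were in 129 replicates 6, 7 and 9, which carried genital duct transcripts and had low Xist. The log2 fold change was 5.18 without the libraries rich in other tissues. Elovl7, an enzyme that elongates very long fatty acids, was between 13.8 and 17.99 CPM in 129 (median 16.1), against 1.12 to 1.68 CPM in AJ (median 1.32). Its log2 fold change was 3.51 (SE 0.42, adjusted p = 2.86e-09), and 129 lay above every other strain mean, of which the highest was 4.94 CPM in WSB. Folh1, the glutamate carboxypeptidase known as prostate-specific membrane antigen, was between 40.3 and 68.1 CPM in 129 (median 52.4), against 5.47 to 14.04 CPM in AJ (median 9.31). This gene too was without overlap (log2 fold change 2.44, SE 0.45, adjusted p = 7.66e-05) and higher in 129 than the highest other strain mean of 28.2 CPM, in NZO.

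Other genes higher in 129 without overlap were Vnn3, of the pantetheine-cleaving vanin family (log2 fold change 3.42, SE 0.49), Zfp14, a zinc finger protein (2.60, SE 0.20), Cryab, a small heat shock chaperone (2.50, SE 0.31), Fgf13, a fibroblast growth factor homologue that stays in the cell (2.38, SE 0.45), and Alpk2, an alpha-type kinase (2.21, SE 0.35). Their adjusted p was at most 8.02e-05. Vnn3 was 36.6 to 50.3 CPM in the high-Xist libraries of 129 and 7.87 to 15.7 CPM in the low-Xist ones. In AJ it was 4.05 to 5.27 CPM with high Xist and 1.08 to 1.85 CPM with low Xist. With log2 Xist as a covariate its log2 fold change was 3.28. Without the libraries rich in other tissues, where strain and Xist are partly confounded, it was 4.16. The calls of Slc5a7 and Kcnj15 moved with particular libraries. Slc5a7, a choline transporter, was 116, 68.0 and 80.3 CPM in 129 replicates 6, 7 and 9 and 9.47 to 19.03 CPM in the other 129 libraries, against 0.506 to 6.03 CPM in AJ. The 3 libraries with the highest values are those that carried genital duct transcripts and had low Xist. In AJ, Slc5a7 was 3.63 to 6.03 CPM in the low-Xist replicates 1, 5, 6 and 8. It was 0.506 to 1.86 CPM in the high-Xist AJ replicates 2, 3 and 4. With log2 Xist as a covariate Slc5a7 was 3.88 (adjusted p = 0.00334). Its log2 fold change of 3.77 (SE 1.13, adjusted p = 0.0213) was 3.35 (adjusted p = 0.0531) without 129 replicate 6, 3.40 (adjusted p = 0.0958) without AJ replicates 3 and 4, and 1.77 (adjusted p = 0.588) without all libraries rich in other tissues. Kcnj15, a potassium channel, was 300.2, 269 and 192 CPM in the same 3 libraries of 129 and 66.4 to 93.3 CPM in the other 4, against 12.7 to 41.1 CPM in AJ. Within AJ it was 35.0 to 41.1 CPM in the low-Xist replicates and 12.7 to 22.4 CPM in the high-Xist replicates. Kcnj15 was called at 2.44 (SE 0.64, adjusted p = 0.00696) and was 1.37 (adjusted p = 0.428) without all libraries rich in other tissues. With log2 Xist as a covariate it was 2.50 (adjusted p = 0.000127). The parts of Xist and of other tissues in Vnn3, Slc5a7 and Kcnj15 were not tested.

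**Figure D1:**
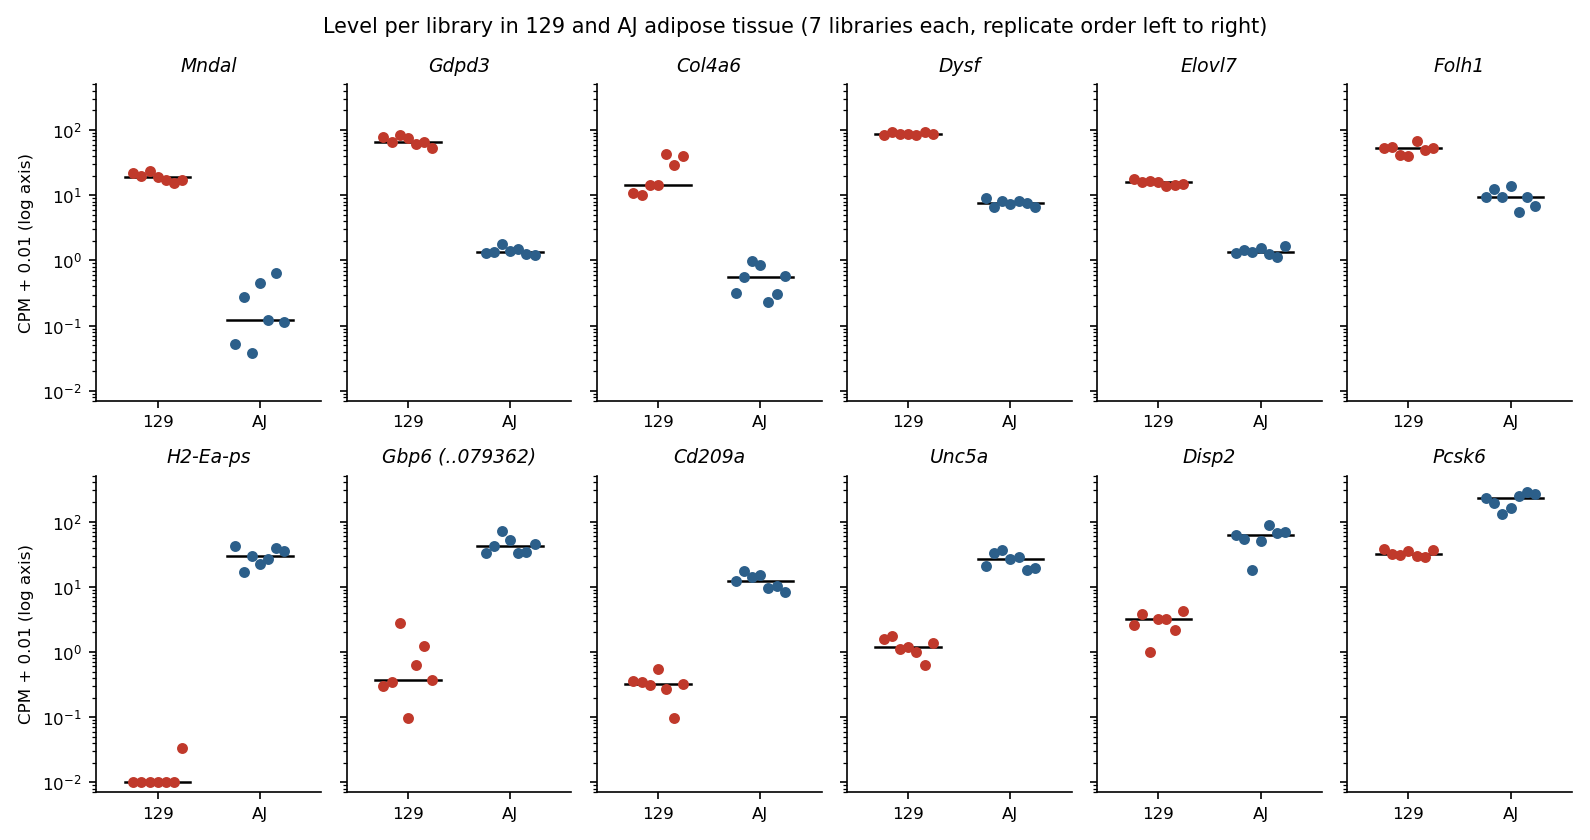
CPM plus 0.01 on a log axis for 12 genes, 1 point per library in replicate order, with 7 libraries of 129 on the left and 7 of AJ on the right of each panel and black lines at the medians. The upper row holds genes higher in 129 and the lower row genes lower in 129. All 12 were picked by a rule that required no overlap between the strains.

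At the other end, Cd209a, a lectin receptor of dendritic cells, was between 0.0883 and 0.543 CPM in 129 (median 0.311), against 8.4 to 17.4 CPM in AJ (median 12.0). The log2 fold change was -5.31 (SE 0.39, adjusted p = 1.49e-16), with every 129 library below every AJ library. Unc5a, a receptor for the guidance factor netrin, was between 0.618 and 1.77 CPM in 129 (median 1.2), against 17.97 to 36.4 CPM in AJ (median 27.1). It was lower in 129 by a log2 fold change of -4.41 (SE 0.49, adjusted p = 3.6e-10), without overlap. Disp2, a relative of the Hedgehog release protein Dispatched, was between 0.998 and 4.19 CPM in 129 (median 3.17), against 18.03 to 87.6 CPM in AJ (median 63.1). AJ replicate 3, at 18.03 CPM, lay well under the other AJ libraries and still above all 129 libraries (log2 fold change -4.34, SE 0.43, adjusted p = 1.19e-11).

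Pcsk6, a proprotein convertase that cleaves secreted precursors, was between 28.6 and 38.2 CPM in 129 (median 31.8), against 132 to 280 CPM in AJ (median 229). Here both strains were extreme: the other 6 strain means were between 51.4 CPM in NZO and 138 CPM in NOD, with 129 below and AJ above all of them (log2 fold change -2.71, SE 0.28, adjusted p = 6.78e-11). Amica1, an adhesion molecule of leukocytes, was between 0.886 and 1.31 CPM in 129 (median 1.01), against 4.92 to 14.1 CPM in AJ (median 9.48). The strains did not overlap (log2 fold change -3.23, SE 0.40, adjusted p = 8.02e-09). Igha, the constant region of the IgA heavy chain and a product of plasma cells, was between 1.36 and 4.95 CPM in 129 (median 2.99), against 6.3 to 79.6 CPM in AJ (median 27.7). The highest level of Igha, 79.6 CPM, and the next came from AJ replicates 4 and 3, and the log2 fold change of -3.38 (SE 0.54, adjusted p = 4.11e-06) was -2.59 (adjusted p = 0.000387) without them.

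Ncoa4, the receptor that takes ferritin to lysosomes, was between 26.4 and 40.0 CPM in 129 (median 33.0), against 248 to 287 CPM in AJ (median 279.6). Atp5g2, which encodes subunit c of the mitochondrial ATP synthase, was between 3.51 and 6.84 CPM in 129 (median 6.14), against 54.6 to 78.7 CPM in AJ (median 60.2). Ahcy, the enzyme that hydrolyses S-adenosylhomocysteine, was between 5.29 and 9.84 CPM in 129 (median 6.96), against 36.5 to 58.0 CPM in AJ (median 43.7). All 3 were lower in 129 without overlap, by log2 fold changes of -3.02 (SE 0.18), -3.44 (SE 0.19) and -2.69 (SE 0.20), and all 3 share reads with other genes or copies, so part of each value can depend on where a read was placed. The same holds for the pseudogenes Rpl28-ps1 (log2 fold change -7.83, SE 0.85) and Znf41-ps (-2.50, SE 0.34). Of the 15 counts of Rpl28-ps1 in 129, 12 were in replicate 1, and without it the log2 fold change was -9.75 on the 3 counts left. Pianp, a membrane protein of neurons (-2.88, SE 0.31), and Myom3, a protein of the sarcomere M-band (-2.73, SE 0.35), completed the 15 leading genes lower in 129. Myom3 was highest, at 14.7 and 17.8 CPM, in AJ replicates 3 and 4, and was -2.35 (adjusted p = 1.74e-06) without them.

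Genes of which inbred strains are known to carry distinct alleles were examined as a list. Of 14 tested, 1 was higher in 129 (Dysf), 6 were lower in 129 and 7 were not called. The share called was 50%, against 9.8% of all genes tested, and the median log2 fold change was -0.60. Glo1, the glyoxalase that detoxifies methylglyoxal and lies in a segment duplicated in some strains, was between 122 and 156 CPM in 129 (median 133), against 200 to 224 CPM in AJ (median 213). The groups did not overlap (log2 fold change -0.65, SE 0.09, adjusted p = 8.93e-08). AJ lay above all other strain means, the highest of which was 139 CPM in Cast. Nnt, a mitochondrial enzyme that makes NADPH, was between 27.4 and 36.2 CPM in 129 (median 29.9), against 40.1 to 52.9 CPM in AJ (median 48.9). It was lower in 129 by a log2 fold change of -0.65 (SE 0.16, adjusted p = 0.00298), and the adjusted p was 0.0623 without the libraries rich in other tissues. Naip5, the flagellin sensor whose AJ allele is known for letting Legionella grow, was between 1.91 and 3.93 CPM in 129 (median 2.61), against 3.8 to 6.19 CPM in AJ (median 4.89). It was called lower in 129 (log2 fold change -0.96, SE 0.25, adjusted p = 0.00498), with the ranges overlapping slightly, and had an adjusted p of 0.0504 without the libraries rich in other tissues.

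Casp4, the caspase that senses bacterial lipopolysaccharide and is disabled in 129 mice by a known deletion, was between 2.9 and 5.5 CPM in 129 (median 3.8), against 5.47 to 7.99 CPM in AJ (median 6.9), a slight overlap. Its call (log2 fold change -0.82, SE 0.27, adjusted p = 0.0382) was lost without AJ replicates 3 and 4 (adjusted p = 0.119). Leaving out single libraries, it was also lost without 129 replicate 2, 3, 4, 6, 7 or 9 and without AJ replicate 2, 3, 4 or 6, at adjusted p between 0.052 and 0.0835. Disc1, a scaffold protein with a deletion in 129 mice, was between 0.64 and 0.943 CPM in 129 (median 0.859), against 0.944 to 1.74 CPM in AJ (median 1.38). It was called lower (log2 fold change -0.71, SE 0.21, adjusted p = 0.0199) and lost its call without 129 replicate 7 (adjusted p = 0.0505), without AJ replicate 1 (adjusted p = 0.0565) and without the libraries rich in other tissues (adjusted p = 0.12). The 7 not called included Ahr, the dioxin receptor, which was between 11.2 and 17.7 CPM in 129 (median 13.6), against 11.8 to 20.2 CPM in AJ (median 14.7; log2 fold change -0.11, SE 0.15, adjusted p = 0.764). They also included Hc, complement component C5, for which AJ mice are known to be deficient (-0.05, SE 1.08), Nlrp1b (-0.30, SE 0.42), Ifi202b (-0.30, SE 0.40), Mx1 (-0.54, SE 0.61), Cd5l (-0.76, SE 0.47) and Gpnmb (-0.43, SE 0.70). Hc was at most 1.28 CPM in 129 and at most 0.731 CPM in AJ apart from the liver-rich AJ replicate 8, which held 3.04 CPM. Without the libraries rich in other tissues the log2 fold change of Hc was 2.51 (SE 1.55, adjusted p = 0.441).

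The MHC of the mouse, named H2, lies on chromosome 17. H2-Ea-ps, the locus of the alpha chain of the class II molecule I-E, which is silent in some haplotypes, gave 1 count over all 7 libraries of 129, against 8926 over the 7 of AJ. Per library it was 0 CPM in 6 libraries of 129 and 0.0239 CPM in replicate 9, against 16.8 to 41.9 CPM in AJ (median 29.7). The ratio of AJ to 129 was 8697, with a 95% interval of 1560 to 344000 that covers counting error only. Of 12 class II genes tested, 3 were higher and 1 lower in 129 (33.3%, against 9.8% of all genes tested), with a median log2 fold change of 0.63. H2-Eb1, the beta chain of I-E, was between 140 and 216 CPM in 129 (median 147), against 40.3 to 78.2 CPM in AJ (median 72.2). The beta chain was thus higher in 129, without overlap (log2 fold change 1.31, SE 0.32, adjusted p = 0.00332), while the alpha chain was all but undetected there. H2-Ab1, the beta chain of I-A, was between 131 and 207 CPM in 129 (median 148), against 43.7 to 104 CPM in AJ (median 82.1). Its call (log2 fold change 0.97, SE 0.29, adjusted p = 0.0186) was lost without AJ replicate 2 (0.87, adjusted p = 0.0539) and without AJ replicates 3 and 4 (adjusted p = 0.0582), and H2-Ab1 and H2-Eb1 both missed the threshold without the libraries rich in other tissues (adjusted p = 0.263 and 0.0957).

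Of 24 class I and peptide loading genes tested, 7 were higher and 5 lower in 129 (50%, against 9.8% of all genes tested). Their median log2 fold change was -0.14, and without AJ replicates 3 and 4 there were 6 higher and 2 lower. H2-K1, which presents peptides on nearly all cells, was between 738 and 1012 CPM in 129 (median 835), against 201 to 480.5 CPM in AJ (median 272.5). Among the non-classical genes, H2-T22, a ligand of gamma delta T cells, was between 87.1 and 123 CPM in 129 (median 105), against 5.91 to 7.63 CPM in AJ (median 6.65). Its near copy H2-T10 went the other way, with 12.6 to 16.1 CPM in 129 (median 14.5), against 54.9 to 76.2 CPM in AJ (median 61.4). None of the 3 overlapped between strains, and the log2 fold changes were 1.45 (SE 0.18, adjusted p = 6.46e-09) for H2-K1, 3.99 (SE 0.14, adjusted p = 1.22e-30) for H2-T22 and -2.16 (SE 0.16, adjusted p = 1.09e-16) for H2-T10. H2-T23 (1.09, SE 0.18), H2-Q7 (0.98, SE 0.25) and the secreted H2-Q10 (2.11, SE 0.57) were higher in 129. H2-Q7 was 1.44 without AJ replicates 3 and 4 and 1.81 without the libraries rich in other tissues. H2-Q10 was 2.86 without AJ replicate 8 and 4.18 without the libraries rich in other tissues. It was 11.6 CPM in the liver-rich AJ replicate 8 and at most 5.09 CPM in the other AJ libraries, against 5.36 to 26.9 CPM in 129. All 6 of these class I genes share reads, and the reference genome holds the haplotype of B6.

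The interferon-induced GTPases, which coat and break the vacuoles of intracellular pathogens, gave more calls lower than higher in 129. Of 19 identifiers tested, 8 were called lower and 1 higher (47.4%, against 9.8% of all genes tested). The median log2 fold change was -0.98, against -0.009 over all genes. Without AJ replicates 3 and 4, which also carried skeletal muscle, 3 were lower and 1 higher and the median was -0.51. AJ replicate 3 had the highest level of Iigp1, Tgtp2, Igtp, Irgm2 and Gbp4, and the part of its other tissues in this was not tested. The upstream stretches of 4 of these genes are shown because they hold a paired motif that few promoters have. Each line is RefSeq sequence of build GRCm38.p6, 5′ to 3′ on the strand of the gene, with the letters TTCNNNGAA (the palindrome of the interferon gamma activated site) and GAAANNGAAA (the core of the interferon-stimulated response element) in capitals.
Irgm2 (chr11:58214884-58214940, + strand): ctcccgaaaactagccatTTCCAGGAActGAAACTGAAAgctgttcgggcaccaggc
Igtp (chr11:58199493-58199549, + strand): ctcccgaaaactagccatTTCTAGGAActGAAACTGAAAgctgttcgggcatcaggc
Tgtp1 (chr11:48992296-48992352, - strand): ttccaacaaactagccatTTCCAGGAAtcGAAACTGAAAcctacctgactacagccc
Tgtp2 (chr11:49064255-49064311, - strand): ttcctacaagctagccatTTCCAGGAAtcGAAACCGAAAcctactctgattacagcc

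The motifs were searched on both strands, as GAAANNGAAA or its complement TTTCNNTTTC and as TTCNNNGAA, in windows of 250 bases before to 50 bases after each start. In all 4 genes they lay within 5 bases of each other, without overlapping, and the pair was in 12 of 32851 promoters (0.0365%), while GAAANNGAAA alone was in 3.44% and TTCNNNGAA alone in 8.3%. Of the 18 listed genes 10 matched a promoter, and the other 6 of these 10 lacked the pair. These letters describe the reference sequence and not the 129 or AJ alleles. Tgtp2 was between 2.08 and 10.4 CPM in 129 (median 7.7), against 13.7 to 75.3 CPM in AJ (median 19.5). Igtp was between 7.06 and 10.7 CPM in 129 (median 8.88), against 10.98 to 49.0 CPM in AJ (median 14.7). In both genes every AJ library lay above every 129 library.

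The log2 fold changes of Tgtp2 (-1.93, SE 0.41, adjusted p = 0.000633), Tgtp1 (-1.53, SE 0.38, adjusted p = 0.00413), Igtp (-1.21, SE 0.29, adjusted p = 0.00304) and Irgm2 (-1.13, SE 0.26, adjusted p = 0.00151) all passed the test. Without AJ replicates 3 and 4 they were -1.21 (adjusted p = 0.0506), -0.99 (adjusted p = 0.111), -0.63 (adjusted p = 0.185) and -0.64 (adjusted p = 0.105), and none passed. Iigp1 was between 7.8 and 22.9 CPM in 129 (median 17.0), against 26.8 to 191 CPM in AJ (median 34.8), without overlap. Its log2 fold change of -1.95 (SE 0.46, adjusted p = 0.00247) was -1.31 (adjusted p = 0.0433) without AJ replicate 3 and -1.06 (adjusted p = 0.149) without AJ replicates 3 and 4. The guanylate-binding protein Gbp4 was between 12.2 and 28.2 CPM in 129 (median 23.5), against 63.5 to 165 CPM in AJ (median 73.8). Gbp4 stayed called without these replicates (-2.07, SE 0.28 with all libraries, and -1.70, adjusted p = 8.95e-06, without them), and was -1.47 without the libraries rich in other tissues.

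On chromosome 5, 2 identifiers bear the symbol Gbp6 and share reads. The one at 105214907 to 105293695 (ENSMUSG00000079362) was between 0.0857 and 2.77 CPM in 129 (median 0.359), against 32.5 to 72.6 CPM in AJ (median 42.0). It was lower in 129 by a log2 fold change of -5.77 (SE 0.82, adjusted p = 3.25e-07), and no other strain mean exceeded 4.31 CPM. Without 129 replicate 3, the highest library of 129, it was -6.48. The one at 105270702 to 105293698 (ENSMUSG00000104713) was between 32.6 and 46.6 CPM in 129 (median 39.1), against 13.2 to 32.4 CPM in AJ (median 20.8). This identifier was higher in 129 (log2 fold change 0.87, SE 0.22, adjusted p = 0.00477), so the overlapping pair moved in opposite directions. Of 31 genes of the wider interferon response 1 was higher in 129 and none lower (3.23%, against 9.8% of all genes tested). Their median log2 fold change was -0.29, and 3 of the 31 were positive. Without AJ replicates 3 and 4 the median was -0.19. On the 14 libraries alone, edgeR called 9 of them lower and 1 higher. The gene called higher with all libraries was Xaf1, a partner of the apoptosis inhibitor XIAP. Xaf1 was between 25.4 and 37.3 CPM in 129 (median 28.0), against 12.0 to 14.8 CPM in AJ (median 13.4), without overlap. Its log2 fold change was 1.10 (SE 0.23, adjusted p = 0.000429). With all 61 libraries, none of 29 cytokines and chemokines was called by edgeR, where 6 had an unadjusted p under 0.05, and DESeq2 and limma called 1 each. On the 14 libraries alone, edgeR called 1 of them higher and 1 lower.

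**Figure D2:**
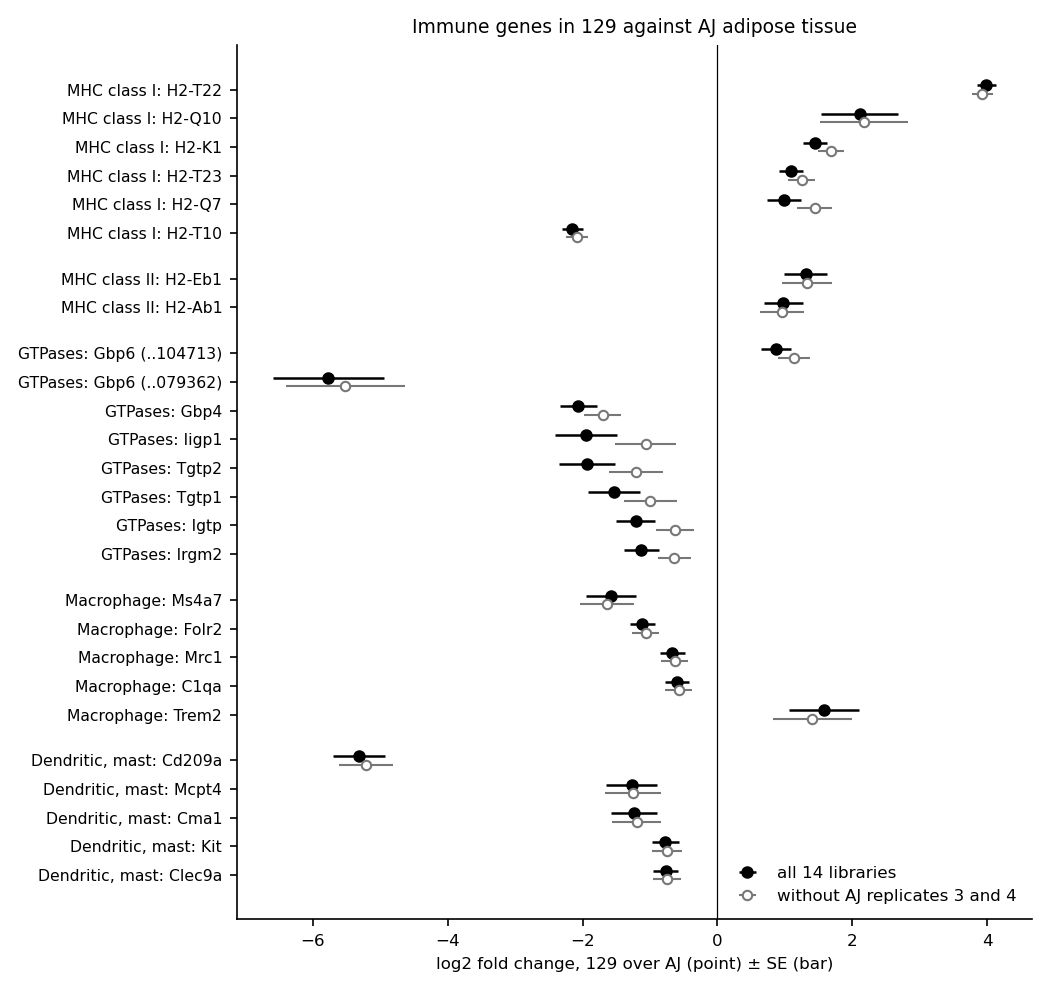
Log2 fold change, 129 over AJ, with SE bars for immune genes, filled points from all 14 libraries and open points without AJ replicates 3 and 4. H2-T22 at 3.99 and H2-T10 at -2.16 mark the range of class I, and the open points of Iigp1, Tgtp1, Tgtp2, Igtp and Irgm2 lie nearer to 0 than the filled ones.

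Of 19 inflammasome genes, which form the platforms that activate caspase 1, 2 were higher and 5 lower in 129 (median log2 fold change -0.05). The share called was 36.8%, against 9.8% of all genes tested. Nlrp1a, a sensor of the NLRP1 family, gave 7 counts over the 129 libraries, all from replicate 1, against 179 over the AJ libraries. It was at most 0.203 CPM in 129, against 0.366 to 0.754 CPM in AJ, with no overlap (log2 fold change -4.37, SE 0.60, adjusted p = 1.14e-07). Without 129 replicate 1 it was at 0 in 129, and against the limit of 3 counts over the group it was at least 50.8-fold lower there. Nlrc4, the adaptor of the Naip sensors, was between 1.51 and 2.75 CPM in 129 (median 1.69), against 2.95 to 4.55 CPM in AJ (median 3.38), a log2 fold change of -0.91 (SE 0.23, adjusted p = 0.0041). Il18, the cytokine that caspase 1 matures, was between 3.26 and 4.55 CPM in 129 (median 3.73), against 1.55 to 3.24 CPM in AJ (median 2.26). It was higher in 129 (0.75, SE 0.20, adjusted p = 0.00646). Naip1, called at 2.67 (SE 0.83, adjusted p = 0.027), reached 4.97 CPM in 129 with a median of 0.29 CPM, against a median of 0.301 CPM in AJ. It lost its call without 129 replicate 6 (2.15, adjusted p = 0.102), without 129 replicate 9 (2.18, adjusted p = 0.0944), without AJ replicate 3, 4 or 6 (2.47, 2.54 and 2.50, adjusted p between 0.0578 and 0.0606) and without AJ replicates 3 and 4 (adjusted p = 0.12), and was -0.15 (adjusted p = 0.967) without the libraries rich in other tissues. Without the libraries rich in other tissues Nlrc4 and Il18 also missed the threshold (adjusted p = 0.0864 and 0.0605).

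In bulk tissue, fewer cells of a type and less RNA per cell cannot be told apart, and this holds for all cell type markers here. Of 24 macrophage marker identifiers, 7 were lower in 129 and none higher (29.2%, against 9.8% of all genes tested). Of the 24, 23 had a negative log2 fold change, and the median was -0.49. Without AJ replicates 3 and 4, 4 were lower, with a median of -0.51. Their summed level was between 1040 and 2270 CPM in 129 (median 1460), against 1750 to 2540 CPM in AJ (median 2170), and the strains overlapped. Folr2, a folate receptor of resident macrophages, was between 16.7 and 32.6 CPM in 129 (median 19.7), against 35.0 to 59.1 CPM in AJ (median 51.9). Ms4a7, a membrane protein of macrophages, was between 1.61 and 5.17 CPM in 129 (median 3.07), against 6.78 to 12.96 CPM in AJ (median 9.45). Mrc1, the mannose receptor, was between 104 and 179 CPM in 129 (median 125), against 191 to 245 CPM in AJ (median 213). In all 3 genes the strains were fully separated, with log2 fold changes of -1.11 (SE 0.19, adjusted p = 1.3e-05), -1.58 (SE 0.37, adjusted p = 0.00232) and -0.67 (SE 0.18, adjusted p = 0.0104).

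Mrc1 missed the threshold without the libraries rich in other tissues (adjusted p = 0.0994). C1qa, a chain of complement C1q made by macrophages, was between 66.3 and 102 CPM in 129 (median 77.2), against 101 to 147 CPM in AJ (median 118.5), a slight overlap, with a log2 fold change of -0.60 (SE 0.18, adjusted p = 0.0229). Its call was lost without 129 replicate 2, 3 or 4 or AJ replicate 1 (adjusted p between 0.0509 and 0.0561), and without AJ replicates 3 and 4 (adjusted p = 0.0652). Genes of lipid-associated macrophages, which gather around overfilled adipocytes, gave 1 call among 16 tested (6.25%, against 9.8% of all genes), Trem2, and it was higher in 129. Trem2 was 69.3, 53.2 and 85.4 CPM in 129 replicates 6, 7 and 9 and 30.3 to 37.1 CPM in the other 129 libraries, against 6.72 to 25.8 CPM in AJ (median 16.2). The highest 3 values were again in the libraries with genital duct transcripts and low Xist. Its log2 fold change of 1.58 (SE 0.52, adjusted p = 0.0409) missed the threshold without AJ replicates 3 and 4 (1.41, adjusted p = 0.142) and without any 1 of 129 replicates 6, 7 and 9 or AJ replicates 2, 3, 4, 5 and 8 (adjusted p between 0.0507 and 0.0996), and was 0.92 (adjusted p = 0.563) without the libraries rich in other tissues.

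Markers of dendritic cells, neutrophils and mast cells did not overlap between the strains in their summed level. The sum was between 85.03 and 104 CPM in all 7 libraries of 129, against 135 to 195 CPM in AJ. Of 21 tested, 7 were lower in 129 and none higher (33.3%, against 9.8% of all genes tested). Their median log2 fold change was -0.57, 4 of the 21 were positive, and 5 were lower without AJ replicates 3 and 4. On the 14 libraries alone, edgeR called 10 of them lower and 2 higher. Cma1 and Mcpt4, chymases stored in the granules of connective tissue mast cells, were between 3.44 and 6.98 CPM (median 4.39) and between 6.13 and 9.53 CPM (median 7.31) in 129, against 7.12 to 18.1 CPM (median 10.46) and 13.8 to 28.6 CPM (median 16.0) in AJ. Neither chymase overlapped between strains (log2 fold changes -1.24, SE 0.33, adjusted p = 0.00866, and -1.27, SE 0.38, adjusted p = 0.0212). Mcpt4 missed the threshold without AJ replicate 2 (-1.13, adjusted p = 0.0594). Kit, the stem cell factor receptor that mast cells keep, was between 14.6 and 27.5 CPM in 129 (median 18.3), against 28.3 to 37.6 CPM in AJ (median 32). It was lower in 129 (log2 fold change -0.77, SE 0.20, adjusted p = 0.00729), as was Clec9a, a receptor of cross-presenting dendritic cells (-0.77, SE 0.19, adjusted p = 0.00321). With the libraries rich in other tissues left out, Cd209a was the 1 member of the list still called, and the adjusted p of Cma1, Mcpt4, Kit and Clec9a was between 0.0723 and 0.204.

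Of 28 T and NK cell markers 2 were higher and 2 lower in 129 (14.3%, against 9.8% of all genes tested). Their median log2 fold change was -0.42, and 6 of the 28 were positive. Of 19 B cell markers 1 was lower (5.26%), with a median of -0.78, and 1 of the 19 was positive. Genes outside the T and NK list separated the strains in the cluster of Ly49 receptors on chromosome 6, through which NK cells read MHC class I molecules. Klra4 gave 163 counts and Klra9 gave 69 counts over the 7 libraries of 129, and both were at 0 in all 7 libraries of AJ. Against the limit of 3 counts over the group, Klra4 was at least 55.8-fold higher and Klra9 at least 23.6-fold higher in 129. Klra1 and Klra13-ps gave 126 and 194 counts in 129, against 2 counts each in AJ. All 4 were low, with no 129 library above 1.22 CPM, and strains are known to differ in which Ly49 genes they carry. Between 130 and 132 Mb of chromosome 6, 8 of 13 genes tested were called, 6 without AJ replicates 3 and 4.

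**Figure D3:**
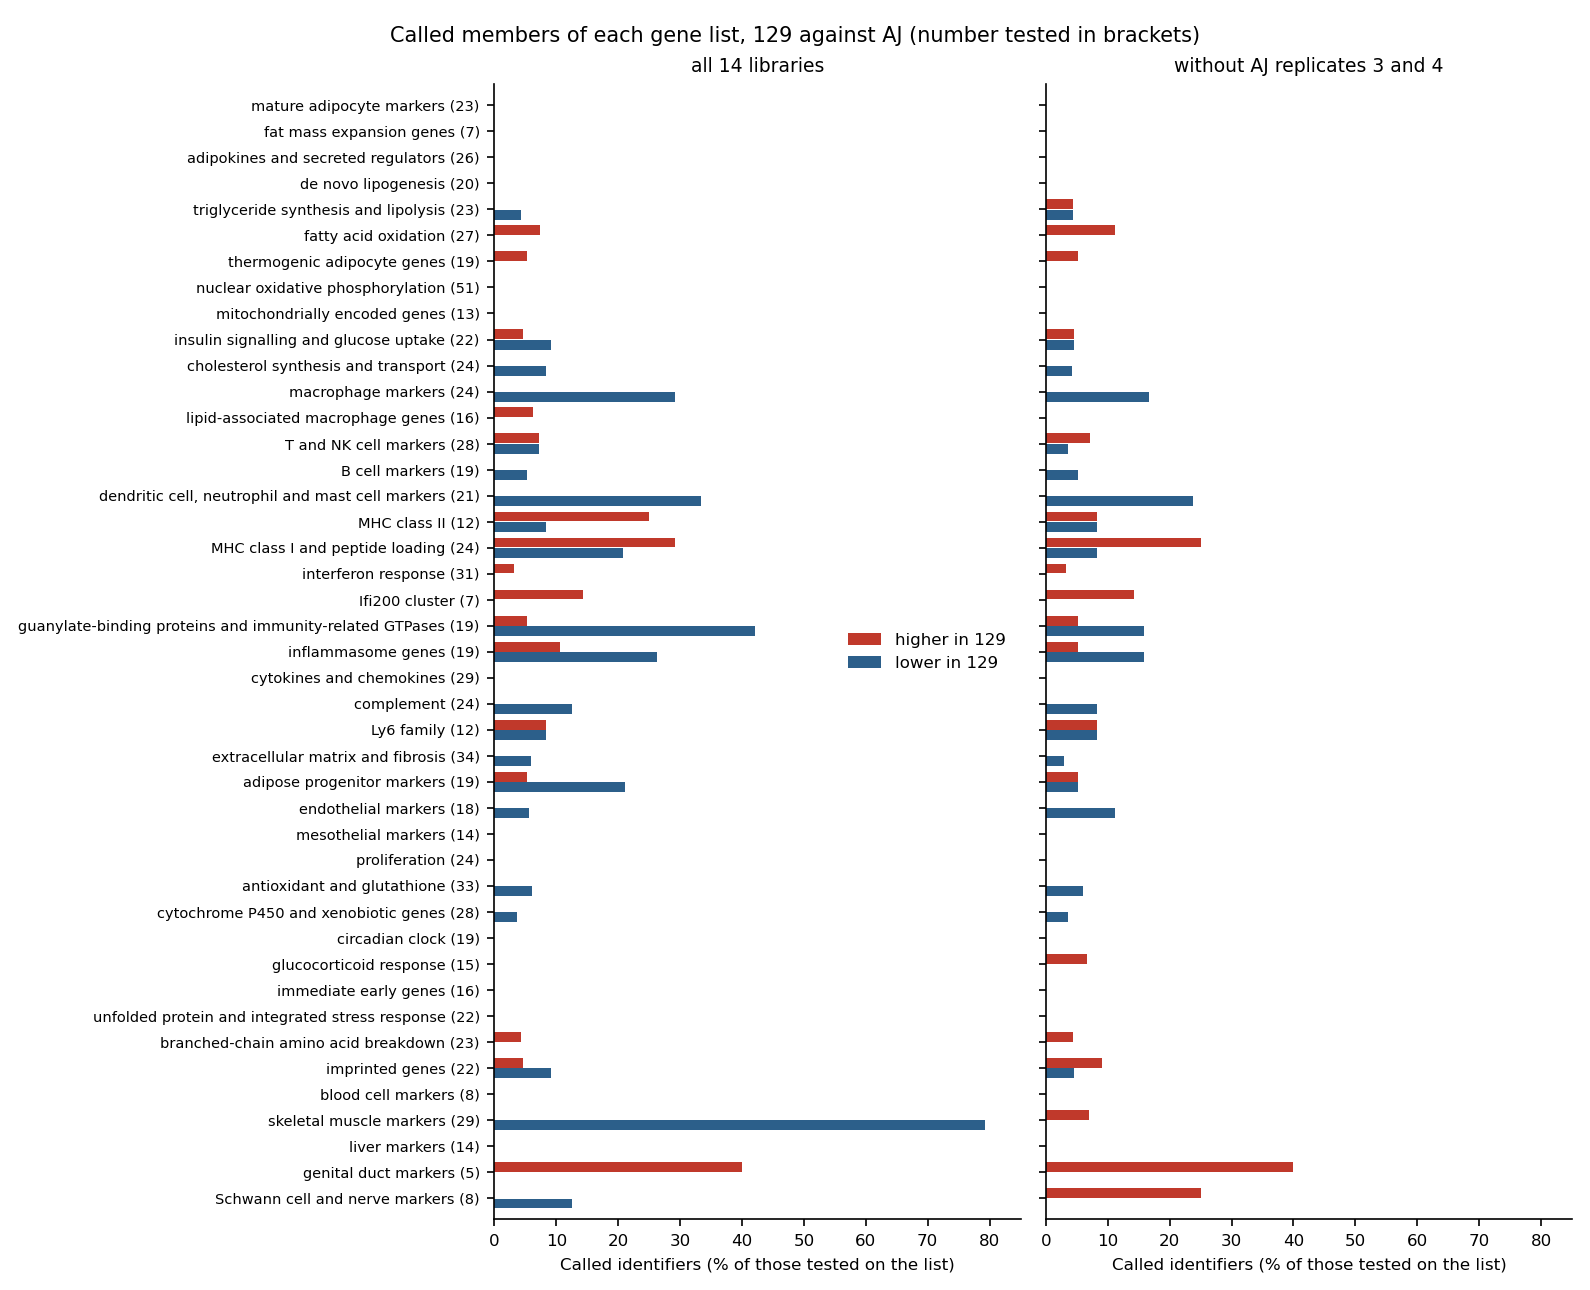
Share of tested identifiers on each gene list that were called higher (red) or lower (blue) in 129, with all 14 libraries on the left and without AJ replicates 3 and 4 on the right. The share of skeletal muscle markers called lower, 23 of 29, is 0 without these replicates, and adipocyte, adipokine and lipogenesis genes have no bar in either panel.

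Few genes of the fat cells themselves were called. By edgeR none of 23 adipocyte markers, 26 adipokines, 20 lipogenesis genes, 7 genes that mark fat mass expansion, 51 nuclear genes of oxidative phosphorylation and 13 mitochondrially encoded genes was called. These are 135 distinct identifiers, of which 4 had an unadjusted p under 0.05, against 4034 of the 18603 genes tested, and DESeq2 and limma called 0 of them. All these fits used the 61 libraries. On the 14 libraries alone, edgeR called 1 adipocyte marker higher and 1 lower, 3 adipokines higher and 1 lower, and 1 fat mass expansion gene higher. It called none of the other lists just named. With log2 Xist as a covariate, 1 adipokine was called higher. Scd1, the desaturase that makes oleate, was between 78280 and 119900 CPM in 129 (median 85730), against 68470 to 87180 CPM in AJ (median 80700; log2 fold change 0.20, SE 0.20, adjusted p = 0.623). Adipoq had a log2 fold change of 0.18 (SE 0.29, adjusted p = 0.793) and Cfd, which encodes adipsin, one of 0.23 (SE 0.43, adjusted p = 0.834). With these SE, differences of moderate size would often have been missed: in simulated data for this comparison the test recovered 39% of 100 genes given a log2 difference of 0.5 and 78% of 100 given a difference of 1. The lipogenesis median was -0.40 with all libraries and 0.12 without AJ replicates 3 and 4.

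Lep and Ucp1 varied within each strain along with Xist. Lep, the satiety hormone leptin, was 2191, 1451 and 2249 CPM in the 129 libraries with low Xist and between 497 and 909.5 CPM in the 129 libraries with high Xist. In AJ it was between 1908 and 2494 CPM in the low-Xist libraries and between 820.3 and 1217 CPM in the high-Xist libraries. Ucp1, the uncoupling protein of heat-producing fat cells, ran the opposite way, at 11.3 to 23.2 CPM with low Xist and 107 to 771 CPM with high Xist in 129, against 2.07 to 9.55 CPM with low Xist and 126 to 518 CPM with high Xist in AJ. Neither gene was called between strains (Lep log2 fold change -0.39, SE 0.73, adjusted p = 0.83; Ucp1 0.86, SE 1.37, adjusted p = 0.794), and with log2 Xist as a covariate the adjusted p was 0.84 for Lep and 0.615 for Ucp1. Of 19 thermogenic genes 1 was called (5.26%, against 9.8% of all genes tested). This was Prdm16, the transcriptional regulator of brown and beige fat identity, at 9.02 to 17.4 CPM in 129 (median 12.5), against 3.9 to 7.47 CPM in AJ (median 5.96). Prdm16 was higher in 129 without overlap, with a log2 fold change of 1.05 (SE 0.27, adjusted p = 0.00532).

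A few enzymes and regulators of metabolism did differ. Grb14, an adaptor that restrains the insulin receptor, was between 6.66 and 24.5 CPM in 129 (median 14), against 3.59 to 5.3 CPM in AJ (median 4.45). Tbc1d4, the Rab regulator through which insulin releases glucose transporters to the membrane, was between 27.3 and 54.4 CPM in 129 (median 35.0), against 64.7 to 95.2 CPM in AJ (median 76.8). Grb14 was higher (log2 fold change 1.84, SE 0.32, adjusted p = 2.58e-05) and Tbc1d4 lower in 129 (-1.04, SE 0.22, adjusted p = 0.000669), both without overlap. They were among 3 called of 22 genes of insulin signalling (13.6%, against 9.8% of all genes tested). Tbc1d4 missed the threshold without the libraries rich in other tissues (adjusted p = 0.131). Mogat2, which makes diacylglycerol from monoacylglycerol, was between 4.26 and 14.8 CPM in 129 (median 6.52), against 16.8 to 36.2 CPM in AJ (median 24.4). It was the 1 gene called of 23 for triglyceride synthesis and lipolysis (4.35%), with a log2 fold change of -1.82 (SE 0.34, adjusted p = 9.09e-05).

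Abcg1, which exports cholesterol, was between 20.1 and 37.4 CPM in 129 (median 25.7), against 40.1 to 79.8 CPM in AJ (median 67.8). The strains were apart, with a log2 fold change of -1.29 (SE 0.28, adjusted p = 0.000871). Gsta4, the glutathione transferase that clears the lipid peroxidation product 4-hydroxynonenal, was between 9.72 and 29.4 CPM in 129 (median 24.5), against 54.3 to 109 CPM in AJ (median 64.4). Gsta4 and Nnt were the 2 called of 33 antioxidant genes (6.06%, against 9.8% of all genes tested). Gsta4 had a log2 fold change of -1.81 (SE 0.34, adjusted p = 9.64e-05), and an adjusted p of 0.0594 without the libraries rich in other tissues. Slc27a6, a fatty acid transporter on chromosome 18, was between 0.415 and 1.32 CPM in 129 (median 0.686), against 2.15 to 3.55 CPM in AJ (median 3.12), a log2 fold change of -2.04 (SE 0.32, adjusted p = 3.26e-06). Acaa1a, a peroxisomal thiolase of fatty acid oxidation that shares reads, was higher in 129 (0.51, SE 0.12, adjusted p = 0.00151).

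Of 19 adipose progenitor markers 4 were lower and 1 higher in 129 (26.3%, against 9.8% of all genes), and 1 was lower and 1 higher without AJ replicates 3 and 4. Anxa3, an annexin of stromal progenitors, was between 44.8 and 87.6 CPM in 129 (median 57.6), against 74.4 to 136 CPM in AJ (median 105), with overlapping ranges and a log2 fold change of -0.69 (SE 0.16, adjusted p = 0.00237). Pi16, a marker of the earliest progenitors, was between 37.6 and 65.4 CPM in 129 (median 50.6), against 67.7 to 118 CPM in AJ (median 83.3). The Pi16 call (-0.86, SE 0.26, adjusted p = 0.0223) was lost without AJ replicates 3 and 4 (adjusted p = 0.106), without 129 replicate 9 (adjusted p = 0.0551) and without AJ replicate 2 (adjusted p = 0.052). Of 34 matrix genes 2 were lower (5.88%), among them Col14a1, a fibril-associated collagen, at 72.6 to 114 CPM in 129 (median 108), against 176.5 to 223 CPM in AJ (median 199.9). It was fully separated (log2 fold change -1.02, SE 0.25, adjusted p = 0.00277), with an adjusted p of 0.0719 without the libraries rich in other tissues. Of 24 complement genes 3 were lower (12.5%), among them Cd59a, which blocks the membrane attack complex, at 46.0 to 59.4 CPM in 129 (median 53.9), against 81.6 to 149 CPM in AJ (median 127). Its log2 fold change was -1.11 (SE 0.17, adjusted p = 2.21e-06). With all 61 libraries, none of 14 mesothelial markers and 24 cell division genes was called by edgeR, DESeq2 or limma, and 0 had an unadjusted p under 0.05 in edgeR. On the 14 libraries alone, edgeR called 1 mesothelial marker lower in 129.

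Genes of other tissues followed the libraries named above. Of 29 skeletal muscle markers 23 were called lower in 129, with a median log2 fold change of -4.63, and without AJ replicates 3 and 4 edgeR called none lower (1 at an unadjusted p under 0.05) and 2 higher, and the median was -0.18. Myh4, a myosin of fast muscle fibres, reached 786 CPM in AJ with a median of 1.44 CPM, against at most 0.343 CPM in 129, and its log2 fold change of -11.21 (SE 2.14, adjusted p = 0.000114) was -3.95 (adjusted p = 0.187) without these replicates. Genital duct genes were high in the 3 libraries of 129 named above: Crisp1, a secreted protein of the epididymis, reached 950.5 CPM in 129 with a median of 0 CPM, against at most 5.62 CPM in AJ. Crisp1 (8.38, SE 2.31, adjusted p = 0.0108) and the transcription factor Pax8 (6.54, SE 1.99, adjusted p = 0.0237) were called, and both lost the call without the libraries rich in other tissues, where the estimates have no clear direction (-4.75, SE 10.58, adjusted p = 0.88, and -1.73, SE 3.45, adjusted p = 0.864). Without AJ replicate 4, which held most of its AJ counts, Crisp1 was 12.27. Pax8 also lost its call without AJ replicates 3 and 4 (adjusted p = 0.0572) and without 129 replicate 6 (5.89, adjusted p = 0.0508), and with log2 Xist as a covariate the adjusted p was 0.172 for Crisp1 and 0.105 for Pax8. None of 14 liver markers was called, although their median log2 fold change was -2.98, and -0.99 without the libraries rich in other tissues. By edgeR 10 of them had an unadjusted p under 0.05, and DESeq2 called 4 and limma 0.

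**Figure D4:**
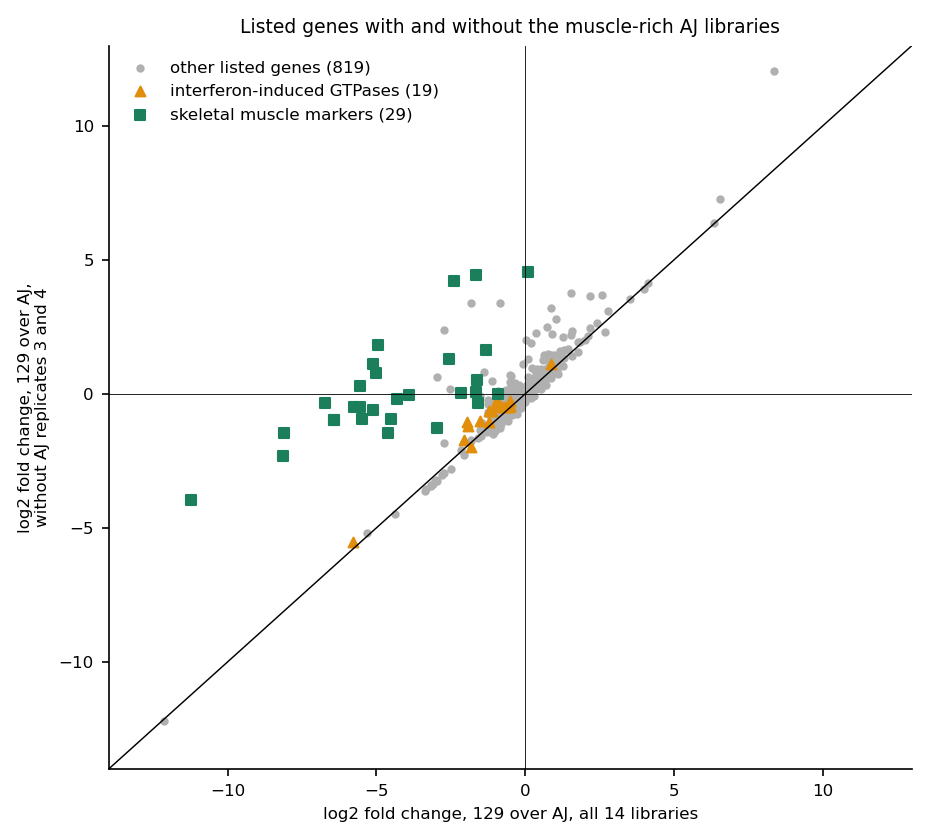
Log2 fold change of the 867 listed identifiers, 129 over AJ, from all 14 libraries (horizontal) and without AJ replicates 3 and 4 (vertical), with the line of equality. The 29 skeletal muscle markers have a median of -4.63 on the horizontal axis and -0.18 on the vertical axis, with Myh4 still at -3.95, while most other genes lie on or near the line.

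Called genes were spread over the genome with some local excess. Among chromosomes with over 100 genes tested, the share called was lowest on X (4.95%) and highest on 17 (13.8%) and 18 (15.3%). Of 963 windows of 2 Mb with at least 5 genes tested, 8 had at least 50% of them called. On chromosome 17 between 6 and 8 Mb, 16 of 25 genes were called, 10 without AJ replicates 3 and 4, and 14 of the 16 share reads. The paralogs Rsph3b and Rsph3a, which encode a protein of ciliary radial spokes, went in opposite directions there: Rsph3b was between 17.1 and 22.3 CPM in 129, against 5.96 to 7.84 CPM in AJ, and Rsph3a between 8.79 and 13.4 CPM in 129, against 24.8 to 31.2 CPM in AJ. Their log2 fold changes were 1.51 (SE 0.15) and -1.43 (SE 0.14), and their neighbour Tmem181b-ps was higher in 129 (1.02, SE 0.11).

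On chromosome 13 between 118 and 120 Mb, 8 of 14 genes were called, 7 without AJ replicates 3 and 4. This window holds Nnt, and beside it Zfp131, a zinc finger protein, at 13.1 to 17.0 CPM in 129 against 25.3 to 29.7 CPM in AJ (log2 fold change -0.85, SE 0.10), and Nim1k, a kinase, at 4.79 to 7.38 CPM in 129 against 2.44 to 3.86 CPM in AJ (1.00, SE 0.16). On chromosome 4 between 146 and 148 Mb, 13 of 24 genes were called, 11 without those replicates, and 9 of the 13 share reads, among them Rex2, a zinc finger gene, with 227 counts in 129 against 10 counts in AJ. On chromosome 14 between 14 and 16 Mb, 3 of 5 genes were called, 2 without those replicates, and all 3 were higher in 129. Il3ra, the alpha chain of the interleukin 3 receptor, was between 10.5 and 13.8 CPM in 129 (median 11.1), against 3.37 to 6.59 CPM in AJ (median 4.43), a log2 fold change of 1.38 (SE 0.14, adjusted p = 4.48e-11). The neighbouring Lrrc3b was also higher (1.504, SE 0.23, adjusted p = 1.66e-06).

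The means of 129 and AJ were also set beside those of the other 6 strains. Of the 1823 called genes, the 129 mean alone lay outside the range of the other 6 strain means in 438, the AJ mean alone in 528, both in 118 and neither in 739. The 129 mean was above that range for 297 genes and below it for 259, and the AJ mean was above it for 362 and below it for 284. Gdpd3, Elovl7, Folh1 and Il3ra were higher in 129 than in any other strain, Dysf and Col4a6 were lower in AJ than in any other strain, and Disp2, Amica1, Glo1 and the Gbp6 identifier ENSMUSG00000079362 were higher in AJ than in any other strain. Mndal belonged to the genes with neither strain outside, since B6, at 31.8 CPM, was above 129 and WSB, at 0.158 CPM, was below AJ. These positions are a description of means and were not tested. They were counted over called genes only, so no share over all genes tested stands beside them. Some means would lie outside the range of 6 others by chance.

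**Figure D5:**
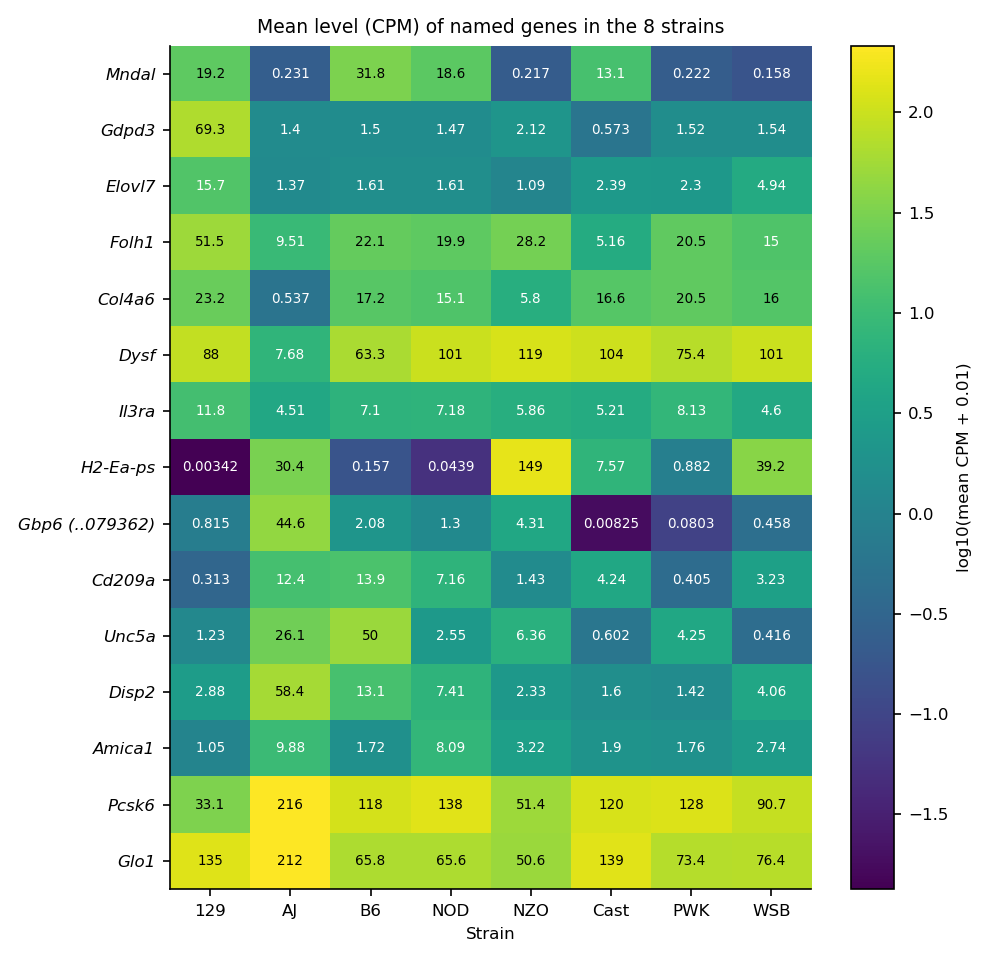
Mean CPM of 15 named genes in the 8 strains, coloured by log10 of the mean plus 0.01, with the mean written in each cell and 129 and AJ in the left columns. Gdpd3 has 69.3 CPM in 129 and at most 2.12 CPM elsewhere, and Dysf has 7.68 CPM in AJ and at least 63.3 CPM elsewhere.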

How the data were processed

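RNA of adipose tissue was made into poly(A)-selected libraries with a spike-in mix, per the labels' protocols. The authors deposited expected counts per gene, in which reads that match several genes are divided, and log2 values from the variance-stabilising transformation of DESeq2, per the submitters' processing notes, on build GRCm38. The aligner and counting tool are not given in the sources used here. Of the deposited expected counts 21.1% were not whole within 1e-06. A gene is said to share reads where over 50% of its 61 values were not whole. Symbols turned into dates were restored for 23 genes.

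Expected counts were rounded, filtered with filterByExpr by strain (2566 genes set aside), scaled by TMM and passed to edgeR 4.0.16 (R 4.3.3) as all 61 libraries with 1 mean per strain, so that the strains share 1 estimate of the spread, and no covariate. The robust quasi-likelihood test was 2-sided, with Benjamini-Hochberg adjustment over all genes tested and a threshold of 0.05. SE is the absolute log2 fold change divided by the square root of F. The fit was tested on simulated counts, where 4.88% of calls fell on unchanged genes. These counts were drawn independently, with the same mean in all strains apart from the changed genes. They held neither the Xist split nor libraries rich in other tissues, so this share and the recovery given above may not hold for the real counts. Alternatives used DESeq2 1.42.0, limma 3.58.1 on the deposited log2 values, other scalings, filters and sets of libraries. Precision is limited by 7 libraries per strain. Intervals and count limits cover counting error only.

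The comparison and the 46 gene lists (911 genes, 867 identifiers tested, 111 called) were chosen with earlier results of these data known. By rule the text draws on the 15 most higher and 15 most lower called genes by fold that average at least 5 CPM and show no overlap of libraries, on up to 6 members per list, on all genes with known alleles, on called genes in the windows described, and on genes near 0 in 1 strain. Predicted genes, clone names and receptor segments were passed over. Within a list the rule puts the called members with the largest absolute log2 fold change first. Not every called member of a list is given, and several calls that are given were lost in other settings. Irgm2, Lep, Ucp1, Scd1, Cfd, Adipoq and Slc27a6 were named after their values were seen. A leading gene and a list member are not reported here. Sequences are from RefSeq (GRCm38.p6).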

Additional observations from a re-analysis of the deposited data

Results flagged for a closer look

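A library was picked out where its gap to the nearest other library of its strain took up an unusually large part of the range of the 7 (Dixon's 95% limit). This happened in 11 of the 212 groups tested (5.19%), and about 5% are picked out by chance. In AJ, replicate 3 was low for Zfp14, at 0.928 CPM, while the rest of AJ had 1.73 to 2.25 CPM, and for Disp2, at 18.03 CPM against 50.9 to 87.6 CPM. AJ replicate 2 was low for Alpk2, at 0.551 CPM against 2.08 to 4.96 CPM, and was the 1 AJ library with counts of Klra13-ps, at 0.0525 CPM. AJ replicate 4 was high for the epididymis gene Crisp1, at 5.62 CPM against at most 0.243 CPM elsewhere in AJ.

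In 129, replicate 1 was high for Slc22a18, at 4.95 CPM against 3.35 to 3.86 CPM, and was the 1 library of 129 with counts of Nlrp1a, at 0.203 CPM. Replicate 2 was high for Rsph3a, at 13.4 CPM against 8.79 to 10.5 CPM. Replicate 7 was low for Atp5g2, at 3.51 CPM against 5.68 to 6.84 CPM. Replicate 9 was low for Tgtp2, at 2.08 CPM against 5.38 to 10.4 CPM, and held the single count of H2-Ea-ps in 129, at 0.0239 CPM.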

How the results depend on the processing

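With all libraries 889 genes were called higher and 934 lower in 129. These counts were 490 and 514 with genes averaging under 5 CPM left out, 487 and 434 with an absolute log2 fold change of at least 1, and 409 and 456 without the libraries rich in other tissues, all of which follow in part from fewer genes or fewer libraries. On the 14 libraries alone, edgeR called 1286 higher and 1429 lower. Scaling by RLE factors, no filter on low counts, DESeq2, limma on the deposited log2 values, Xist as a covariate, leaving out genes that share reads and leaving out AJ replicates 3 and 4 kept both counts within 1.5 times. Leaving out 1 library at a time gave 739 to 898 higher and 795 to 881 lower. The 5 replicate numbers that both strains share do not pair the libraries (correlations of -0.009 to 0.224, 2 of them over 0.1), and a fit with the replicate number as a block called 771 higher and 892 lower. Of the 106 genes named, 93 were called and 13 were not. Of the 93 called, 4 changed sign without the libraries rich in other tissues, and none of the 4 was called there. They were Naip1 (-0.15, SE 0.98), H19 (0.62, SE 0.83), Crisp1 (-4.75, SE 10.58) and Pax8 (-1.73, SE 3.45). Without AJ replicates 3 and 4, 1 of the 93 changed sign (H19 0.64). Of the 13 not called, Hc (2.51, SE 1.55) and Ifi202b (0.05, SE 0.55) changed sign without the libraries rich in other tissues. The cause was not tested. A further 29 lost their calls without the libraries rich in other tissues and 14 without AJ replicates 3 and 4. At these depths genes under 1 CPM, such as the Ly49 receptors with 0 to 2 counts over the AJ libraries, rest on few counts.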

Other observations

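Some gene groups outside the comparisons above held single genes with clear differences. Slc22a18, an imprinted transporter, was between 3.35 and 4.95 CPM in 129 (median 3.78), against 8.77 to 13.03 CPM in AJ (median 10.9), without overlap. Its log2 fold change was -1.48 (SE 0.19, adjusted p = 3.29e-08). It was 1 of 3 called among 22 imprinted genes (13.6%, against 9.8% of all genes tested). H19, an imprinted non-coding RNA of growing muscle, was called lower in 129 (-2.97, SE 0.80, adjusted p = 0.00831) at 1.09 to 1.75 CPM in 129, against 0.243 to 44.5 CPM in AJ, and was -1.93 (adjusted p = 0.107) without AJ replicate 4 and 0.64 (adjusted p = 0.68) without AJ replicates 3 and 4. Its medians were 1.34 CPM in 129 and 1.39 CPM in AJ.

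Ly6c2, a surface protein of monocytes that shares reads within the Ly6 family, was between 2.61 and 4.14 CPM in 129 (median 3.8), against 6.52 to 8.77 CPM in AJ (median 7.29). Its log2 fold change was -1.05 (SE 0.26, adjusted p = 0.00351, and 0.115 without the libraries rich in other tissues). C1ra, a protease of the classical complement pathway that shares reads, was lower in 129 by -0.65 (SE 0.13, adjusted p = 0.000346, and 0.0879 without those libraries). None of 19 circadian clock genes, 15 glucocorticoid response genes, 16 immediate early genes and 22 genes of the unfolded protein response was called by edgeR, against 9.8% of all genes tested. Of their 71 distinct identifiers 6 had an unadjusted p under 0.05, and DESeq2 and limma called 1 each. These fits used all 61 libraries. On the 14 libraries alone, edgeR called 2 clock genes higher and 1 lower, and 1 immediate early gene lower. It also called 1 glucocorticoid response gene and 1 gene of the unfolded protein response higher. No test of a difference between these lists and other genes was made.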
